A study of Mus musculus with 12 samples.

Results

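The glycerolipid acyltransferases are the enzymes that attach fatty acids to the glycerol backbone of triglyceride and phospholipid. The 10 genes described here were chosen by name from these enzymes and are 10 of the 54356 genes to which the deposited transcripts could be tied. They are Gpam, Gpat3 and Gpat4 (glycerol-3-phosphate acyltransferases), Agpat1 to Agpat5 (1-acylglycerol-3-phosphate acyltransferases), and Dgat1 and Dgat2 (diacylglycerol acyltransferases). All 10 passed the filter on low counts.

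The study sequenced polyadenylated RNA from the interscapular brown fat, the heat-producing depot between the shoulder blades, of 12 wild type male C57BL/6N mice that were 20 weeks old. The labels call 6 animals ctrl (mice 2, 5, 6, 9, 10 and 14) and 6 animals cold (mice 4, 7, 11, 12, 15 and 16). The cold treatment is given as 24 h alone in a cage at 4 °C, and the same sentence is attached to the ctrl animals, whose colony was kept at 22 to 24 °C. It is read here as meant for the cold animals, so how the ctrl animals were housed on the last day is not known, and single housing and temperature cannot be told apart if it differed. The series text speaks of 3 cold animals where 6 are labelled cold, and the extraction text names another fat depot (eWAT). All 12 animals carry no stated transgene or deletion, and each library is 1 animal.

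Libraries held 15.98 M to 26.8 M estimated reads in ctrl and 16.99 M to 31.4 M in cold. Markers of the labelled tissue were present in every library: the 10 brown adipocyte markers summed to 9188 to 15229 CPM (counts scaled to a common library size) in ctrl and 13842 to 17383 in cold, with 5 called higher and 0 lower. The 8 general adipocyte markers summed to 16659 to 23099 CPM in ctrl and 26232 to 33529 in cold, without overlap, and 3 of them were called higher and 1 lower. Without Lpl, the lipase that frees fatty acids from lipoproteins, the other 7 summed to 13035 to 16065 CPM in ctrl and 14907 to 21207 in cold, with overlap. Skeletal muscle markers ranged from 133 CPM in a ctrl library to 5511 in cold 15, and 0 of the 11 were called with edgeR (0 also at an unadjusted p under 0.05). Fibroblast and progenitor markers summed to 226 to 370 CPM in ctrl and 184 to 254 in cold, with 3 of 6 called lower. White adipocyte markers summed to 98.0 to 257 CPM in ctrl and 426 to 623 in cold, and without Npr3 to 28.7 to 125 and 24.1 to 85.7. The sums of macrophage, endothelial, Schwann cell and blood markers overlapped between the groups, with 1 of 7 macrophage markers higher, 1 of 5 endothelial markers higher and 1 lower, and 0 of 5 Schwann cell and 0 of 5 blood markers called by edgeR (0 also at an unadjusted p under 0.05). No marker was at 0 in all libraries. The part of these markers in the results below was not tested, apart from a fit with the muscle markers as a covariate, in which every call on the 10 genes was the same. In whole tissue, fewer cells of a type and less RNA per cell cannot be told apart.

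As background, triglyceride is built on glycerol 3-phosphate in steps in the endoplasmic reticulum and at the outer mitochondrial membrane. GPAT enzymes add the first fatty acid and make lysophosphatidate, AGPAT enzymes add the next and make phosphatidate, phosphatases of the lipin family remove the phosphate, and DGAT enzymes add the last fatty acid to diacylglycerol. Phosphatidate is also a branch point towards phospholipids. Brown fat stores triglyceride in many small droplets, draws on it to make heat, and refills it.

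The promoters of Gpam and Agpat1, genes that were higher in cold, and of Agpat2, the member that was lower, are shown. They give DNA next to genes that moved in opposite directions. The Agpat1 window lies before 34605861, the start of Agpat1-201, a transcript that was not called (adjusted p 0.785 in edgeR). Agpat1-204, the transcript of this gene that was called higher, starts elsewhere, at 34604844. The windows are the 250 bases before the RefSeq start on GRCm38.p6, written 5′ to 3′ on the gene's strand, and capitals mark the letters of a CCAAT motif on either strand (ATTGG is CCAAT read on the other strand).
Gpam, chr19:55127239-55127488, minus strand: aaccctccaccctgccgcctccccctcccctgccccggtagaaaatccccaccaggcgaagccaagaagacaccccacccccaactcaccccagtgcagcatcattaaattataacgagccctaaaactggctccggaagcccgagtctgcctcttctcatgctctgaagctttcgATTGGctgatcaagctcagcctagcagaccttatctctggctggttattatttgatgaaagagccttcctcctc
Agpat1, chr17:34605611-34605860, plus strand: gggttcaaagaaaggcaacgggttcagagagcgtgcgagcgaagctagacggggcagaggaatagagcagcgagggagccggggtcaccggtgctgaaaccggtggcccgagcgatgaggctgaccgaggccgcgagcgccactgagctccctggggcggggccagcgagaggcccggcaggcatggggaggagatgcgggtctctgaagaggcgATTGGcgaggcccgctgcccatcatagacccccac
Agpat2, chr2:26604418-26604667, minus strand: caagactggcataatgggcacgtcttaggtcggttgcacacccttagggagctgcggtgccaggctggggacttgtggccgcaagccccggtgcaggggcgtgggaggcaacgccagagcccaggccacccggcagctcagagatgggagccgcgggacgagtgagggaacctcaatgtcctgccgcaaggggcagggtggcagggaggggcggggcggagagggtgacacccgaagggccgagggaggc

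The Gpam window held a CCAAT motif 74 to 70 bases before the start and the Agpat1 window held one 35 to 31 bases before it. The Gpam window lies before 55127238, the start of Gpam-203, which had a mean of 1.03 reads and was not tested. Gpam-202, with 98.3% of the gene's TPM in ctrl and 98.6% in cold, starts further in, at 55127216, and the bases between these starts were not searched. The Agpat2 window held none. It lies before 26604417, the start of the non-coding Agpat2-203, which held 1.32% of the gene's TPM in ctrl and 1.48% in cold. Agpat2-201, with 74.6% and 79.4%, starts further in, at 26604332, so the bases directly before that start were not searched. Of the other windows searched, that of Agpat4, which was not called, held 2, and those of Gpat3, of Agpat3, which was higher in cold, and the second windows of Gpam and Agpat1 held none. CCAAT letters occurred in 33.8% of all 32851 RefSeq windows of this length. The other motifs searched on both strands were the cyclic AMP response element TGACGTCA (in 1.55% of all windows), the estrogen-related receptor element TCAAGGTCA (0.387%), the nuclear receptor direct repeat 1 (0.0335%), a sterol element TCACNCCAC (1.05%) and the E-box CACGTG (6.02%). None of these was in the member windows searched, 8 windows of 6 genes, which says only that the letters are not in them. GC content was 54.8% in the Gpam window, 67.6% in that of Agpat1 and 69.2% in that of Agpat2, against a median of 52.4% over all windows. Gpat4, Agpat5, Dgat1 and Dgat2 had no entry.

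Of the 10 genes, 5 were higher in cold (Gpam, Agpat1, Agpat3, Agpat5 and Dgat1), 1 was lower (Agpat2) and 4 were not called (Gpat3, Gpat4, Agpat4 and Dgat2), by the quasi-likelihood test of edgeR, with p-values adjusted by Benjamini-Hochberg over 13876 genes and a threshold of 0.05. Over all genes tested 31.6% were called, 16.2% higher and 15.4% lower, so that 51.3% of the calls were higher. Scaled to library totals instead of TMM, 67.3% of all calls were higher, and the 10 genes were again 5 higher and 1 lower. The 5 higher genes also had no overlap between the 6 cold and the 6 ctrl animals, as did 16.3% of all genes tested. The median log2 change of the 10 genes was 0.46, against -0.01 for all genes tested. Each of the 3 enzyme steps had 1 or more genes higher in cold and 1 or more genes that were not called.

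**Figure D1:**
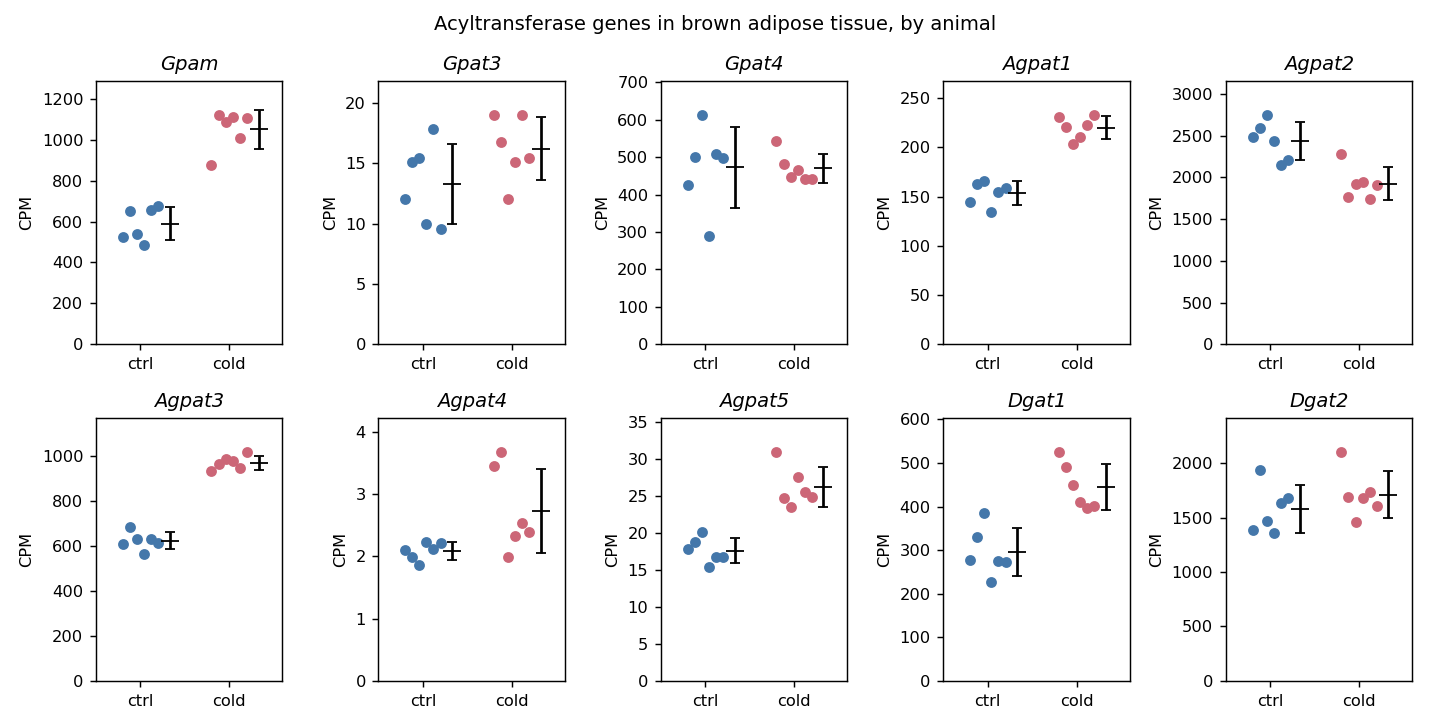
Level of each of the 10 acyltransferase genes in CPM (linear axis from 0, own scale per gene) in every ctrl and cold library; points are animals in order of mouse number and the bars are the mean and SD of 6 animals. Gpam, Agpat1, Agpat3, Agpat5 and Dgat1 have no ctrl point at the level of any cold point, and in Agpat2 only cold 4 lies among the ctrl animals.

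At the first step, Gpam was the gene that rose. It encodes the glycerol-3-phosphate acyltransferase of the outer mitochondrial membrane and lies on chromosome 19 (55067268 to 55127238, minus strand). Its level ran from 487 to 678 CPM in ctrl, with a median of 595, and from 874 to 1119 in cold, with a median of 1097. All 6 cold animals were above all 6 ctrl animals. The means were 589 ± 81.8 CPM (SD, n = 6) in ctrl and 1051 ± 96.0 CPM (n = 6) in cold, a fold of 1.78, and the log2 change was 0.84 ± 0.10 (SE), with an adjusted p of 9.78e-06 in edgeR.

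Gpat4 encodes an enzyme of the same step in the endoplasmic reticulum (chromosome 8, 23171265 to 23208346, minus strand). Its level ran from 290 CPM (ctrl 9) to 612 in ctrl, with a median of 499.7, and from 441 to 542 in cold, with a median of 456. The cold animals all lay inside the ctrl range. The log2 change was -0.01 with an interval of -0.27 to 0.25 (95%, normal approximation from the SE), and the adjusted p in edgeR was 0.972. Gpat3, another enzyme of the endoplasmic reticulum (chromosome 5, 100845713 to 100899102, plus strand), was far lower, with 9.54 to 17.8 CPM in ctrl and 12.1 to 19.0 in cold. Its medians were 13.6 and 16.1 CPM, the groups overlapped, and the log2 change was 0.28 with an interval of -0.02 to 0.58 and an adjusted p of 0.184.

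The next step had genes moving in both directions. Agpat3 encodes an acyltransferase known for a preference for polyunsaturated fatty acids (chromosome 10, 78269178 to 78352489, minus strand). It ran from 564 to 682 CPM in ctrl, with a median of 622, and from 930.3 to 1016 in cold, with a median of 969. The means were 622 ± 38.4 and 969 ± 30.6 CPM, and the log2 change was 0.64 ± 0.07 with an adjusted p of 3.47e-06 in edgeR. With the mean effective transcript length as an offset the log2 change was 0.34 with an adjusted p of 0.00142, so the size of the change, but not its call, moved with this setting.

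Agpat1, a widely expressed enzyme of the endoplasmic reticulum (chromosome 17, 34604262 to 34613449, plus strand), ran from 135 to 166 CPM in ctrl, with a median of 157, and from 204 to 233 in cold, with a median of 222. The log2 change was 0.52 ± 0.07 and the adjusted p in edgeR was 4.35e-05. Agpat5, which encodes a mitochondrial family member (chromosome 8, 18846277 to 18891361, plus strand), ran from 15.3 to 20.1 CPM in ctrl, with a median of 17.3, and from 23.5 to 30.9 in cold, with a median of 25.2. Its log2 change was 0.57 ± 0.09, with an adjusted p of 9.92e-05. Both genes were higher in every cold animal than in any ctrl animal.

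Agpat2 was the member that fell. It encodes the family member whose loss in people and mice causes a near absence of adipose tissue, and it lies on chromosome 2 (26593057 to 26604417, minus strand). Its level ran from 2151 to 2745 CPM in ctrl, with a median of 2462, and from 1739 to 2281 in cold, with a median of 1913. Cold 4, at 2281 CPM, lay inside the ctrl range, and the other 5 cold animals were below every ctrl animal. The means were 2435 ± 226 and 1927 ± 193 CPM, and the log2 change was -0.34 ± 0.09 with an adjusted p of 0.00703 in edgeR. Egfl7, on the opposite strand across Agpat2, had a mean of 1735 reads against 45213 for Agpat2. The libraries kept strand, but whether strand was used in assigning reads is not given. The part of Egfl7 in the counts of Agpat2 was not tested.

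Agpat4, the lowest of the 10 genes (chromosome 17, 12118704 to 12219645, plus strand), had a mean of 50.1 reads per library. Its level was 1.86 to 2.22 CPM in ctrl, with a median of 2.10, and 1.99 to 3.67 in cold, with a median of 2.46. The cold animals 4 and 7 stood at 3.46 and 3.67 CPM and the other 4 between 1.99 and 2.54. The log2 change was 0.40 ± 0.18 with an adjusted p of 0.0995 in edgeR. Among mice numbered 7 and below it was 0.86 (adjusted p 0.110) and among those numbered 9 and above 0.08 (adjusted p 0.826).

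At the last step Dgat1 rose and Dgat2 was not called. Dgat1 encodes the diacylglycerol acyltransferase of the endoplasmic reticulum that is known for re-esterifying fatty acids (chromosome 15, 76502015 to 76511953, minus strand). It ran from 228 to 386 CPM in ctrl, with a median of 277, and from 396 to 525 in cold, with a median of 431. The groups did not overlap, but the highest ctrl animal (ctrl 6, 386 CPM) and the lowest cold animal (cold 15, 396 CPM) were close. The log2 change was 0.59 ± 0.12 with an adjusted p of 9.33e-04 in edgeR. Dgat2, the second enzyme of this step, which is unrelated to Dgat1 in sequence and also works at lipid droplets (chromosome 7, 99153658 to 99182719, minus strand), ran from 1360 to 1940.4 CPM in ctrl, with a median of 1553, and from 1462 to 2102 in cold, with a median of 1682. Its groups overlapped, and the log2 change was 0.12 with an interval of -0.09 to 0.32 and an adjusted p of 0.431.

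**Figure D2:**
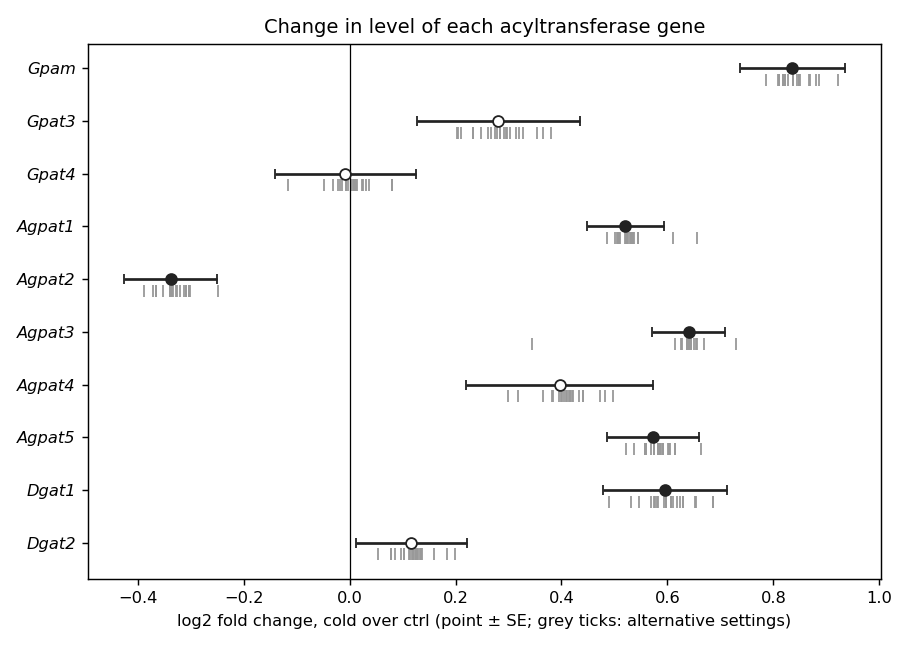
Log2 change in CPM, cold minus ctrl, of the 10 acyltransferase genes with bars of 1 SE on each side, filled points for called genes and open points for the others; grey ticks are the 22 alternative settings and the vertical line at 0 is no change. Agpat2 is the called gene left of 0 at -0.34, and the 5 called genes right of 0 lie between 0.52 and 0.84, with 1 tick of Agpat3 at 0.34 (effective length offset).

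Per length, the enzyme genes differed in level by orders of magnitude. Levels were compared between genes as shares of the summed TPM (a transcript level per unit of length) of the 10 genes in each library. Agpat2 held 54.0 ± 3.61% of that sum in ctrl and 42.3 ± 1.84% in cold, and Dgat2 held 21.5% and 23.4%. Agpat3 followed with 8.10% and 10.4%, and Dgat1 with 6.98% and 9.98%. In ctrl the order went on with Gpat4 (3.14%), Gpam (2.94%), Agpat1 (2.88%), Agpat5 (0.230%), Gpat3 (0.158%) and Agpat4 (0.0324%). In cold, Gpam (5.40%) and Agpat1 (4.60%) stood before Gpat4 (3.28%), and Agpat5 (0.355%), Gpat3 (0.190%) and Agpat4 (0.0453%) came last. Neighbours whose animals overlapped were Agpat3 and Dgat1, and Gpam and Agpat1, in both groups, and Gpat4 and Gpam, and Agpat5 and Gpat3, in ctrl.

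The make-up of each of the 3 steps by isozyme differed between the groups. Gpam made up 47.4 ± 4.22% (SD, n = 6) of the TPM of the 3 GPAT genes in ctrl and 60.6 ± 2.90% in cold. The shares ran from 41.2 to 54.4% in ctrl and from 55.4 to 63.9% in cold and did not overlap. The difference of 13.2 percentage points had p = 0.00216 in an exact two-sided permutation test over every assignment of 6 against 6 animals, the smallest p these allow, and 0.00325 after adjustment over the 3 shares tested. Gpat4 gave the opposite share, 50.0% in ctrl and 37.2% in cold.

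Within the AGPAT genes, Agpat2 held 82.7 ± 1.46% of TPM in ctrl and 73.3 ± 2.19% in cold. Its shares ran from 80.7 to 84.3% and from 70.5 to 77.0%, without overlap, and fell by 9.44 percentage points (exact permutation p = 0.00216, adjusted 0.00325). Agpat3 moved from 12.4 to 18.1%, Agpat1 from 4.44 to 7.96% and Agpat5 from 0.353 to 0.615%, each without overlap between the groups. Agpat4 stayed under 0.11% in every library.

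Within the DGAT pair, Dgat2 held 75.4 ± 3.64% of TPM in ctrl and 70.1 ± 2.11% in cold. The groups overlapped at ctrl 6, whose Dgat2 share was 68.8%. The share fell by 5.32 percentage points (exact permutation p = 0.0195, adjusted 0.0195). The ratio of Dgat2 to Dgat1 in TPM was 3.13 ± 0.54 in ctrl and 2.35 ± 0.22 in cold.

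**Figure D3:**
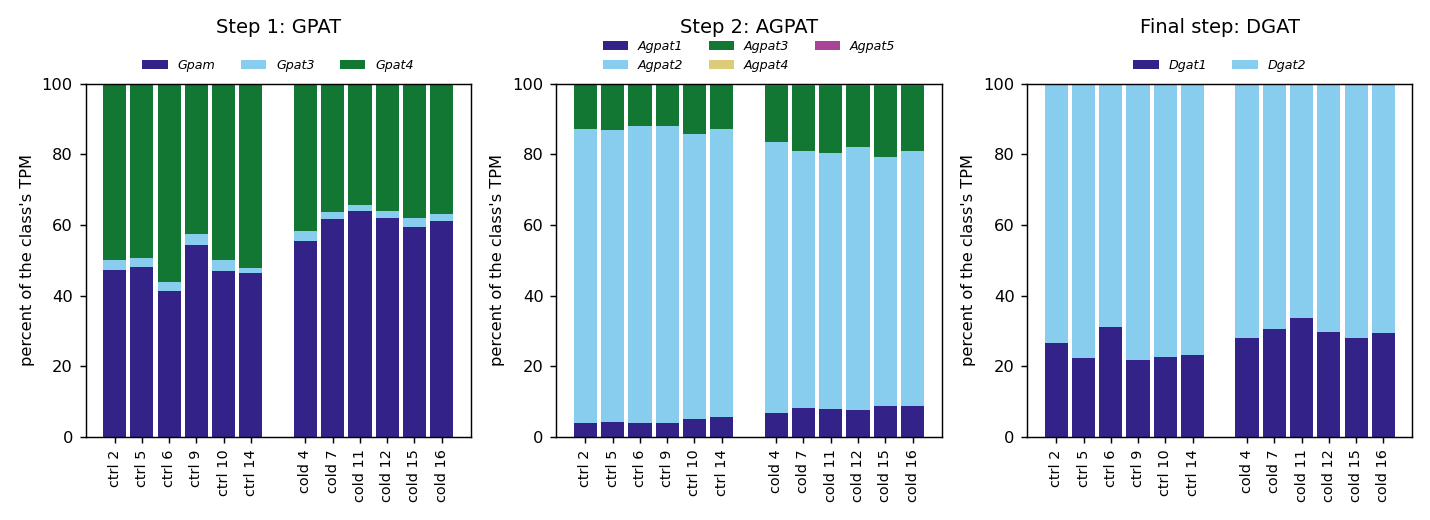
Share of each gene in the summed TPM of its enzyme step (percent) in every library, ctrl against cold. Gpam runs from 41.2 to 63.9% of the GPAT step, Agpat2 from 70.5 to 84.3% of the AGPAT step and Dgat2 from 66.2 to 78.3% of the DGAT step over the 12 libraries.

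Summed over each step, only the GPAT genes had no overlap between the groups, and the sums were not tested. The summed CPM of the GPAT genes was 1075 ± 165 in ctrl and 1538 ± 72.0 in cold, without overlap. That of the AGPAT genes was 3230 ± 244 and 3145 ± 192 CPM, and that of the DGAT genes 1874 ± 242 and 2158 ± 248 CPM, both with overlap.

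Single transcripts were examined for the same 10 genes: GENCODE M21 lists 67, of which 39 were tested and 7 were higher and 1 was lower in cold, against 10.3% called, 6.21% higher and 4.06% lower, of all 30345 transcripts tested. The higher ones were Gpam-202, Agpat1-204, Agpat3-201, Agpat3-204, Agpat5-201, Agpat5-202 and Dgat1-201, and the lower one was Agpat2-201. Estimates for transcripts that share exons depend on how reads were divided among them.

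The 3 most abundant transcripts of Agpat3 have the same coding length of 1128 nt. Their total lengths are 5980 nt (Agpat3-201), 3678 nt (Agpat3-204) and 1316 nt (Agpat3-202). On this minus-strand gene they end at 78269178, 78271563 and 78273611. Their starts differ too, at 78352442, 78298198 and 78295394 in the same order. The use of a start and the use of an end cannot be told apart from these values. Agpat3-201 had 140 ± 24.4 CPM in ctrl and 299.99 ± 35.3 in cold, with a log2 change of 1.10 ± 0.12 and an adjusted p of 1.57e-04 in edgeR. Agpat3-204 had 253 and 428 CPM, with a log2 change of 0.76 ± 0.08 and an adjusted p of 1.17e-04. The short Agpat3-202 had 198 ± 15.0 and 196 ± 26.0 CPM, with a log2 change of -0.01 ± 0.09 and an adjusted p of 0.965. Its share of the gene's TPM moved from 55.5 to 42.1% without overlap, that of Agpat3-201 from 8.16 to 13.6% without overlap, and that of Agpat3-204 from 23.3 to 30.1% with overlap. The mean effective length of Agpat3 was 2197 ± 40.8 nt in ctrl and 2693 ± 151 nt in cold, again without overlap.

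Gpam was almost a single transcript: Gpam-202 held 98.3% of its TPM in ctrl and 98.6% in cold, and had a log2 change of 0.86 ± 0.10 (582 to 1058 CPM, adjusted p 1.72e-04 in edgeR). The inner-start Gpam-201 had 5.91 and 8.18 CPM and an adjusted p of 0.770. Dgat1-201, the full coding transcript, had 241 and 395 CPM (log2 change 0.71 ± 0.12, adjusted p 0.00212), whereas the intron-retaining Dgat1-205 had 22.8 and 20.0 CPM, was highest in ctrl 6 (41.4) and cold 4 (39.5), and had an adjusted p of 0.847. Agpat1-204, a short transcript, had 7.95 and 17.5 CPM (log2 change 1.13 ± 0.15, adjusted p 5.60e-04). Agpat1-201 had 88.8 and 83.1 CPM (adjusted p 0.785), and its share of the gene's TPM was 41.7% in ctrl (27.8 to 66.3%, highest in ctrl 2) and 23.3% in cold (19.8 to 27.5%), without overlap. Agpat1-208, with the same coding length, had 38.4 and 98.3 CPM with a wide spread, 0 in ctrl 2, a log2 change of 1.35 and an adjusted p of 0.341; without ctrl 2 the change was 1.08 and the adjusted p 0.0317. For Agpat5, Agpat5-201 had 15.1 and 22.6 CPM (log2 change 0.58, adjusted p 0.00196) and Agpat5-202, with a longer coding length of 1095 against 873 nt, had a log2 change of 0.68 (adjusted p 0.0208). The call on Agpat5-202 was lost without ctrl 10 and without cold 15 (adjusted p 0.0506).

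Agpat2-201, the more abundant of the 2 tested coding transcripts of Agpat2, fell by 0.24 on the log2 scale, from 1895 to 1604 CPM (adjusted p 0.0289 in edgeR), with overlap between the groups. This call was lost with library totals (adjusted p 0.122) and without ctrl 2, ctrl 5, ctrl 6, cold 7 or cold 15 (adjusted p 0.0541 to 0.0741). The other, Agpat2-205, had 5.25 and 3.17 CPM and was not called. Agpat2-202, which is annotated without a coding region, had 509.8 and 333 CPM. In cold 4 it stood at 789 CPM, and in the other cold animals at 197 to 306. Its log2 change was -0.61 ± 0.34, adjusted p 0.351, and without cold 4 it was -1.08 (adjusted p 0.00407).

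Of the 9 genes with 2 or more tested transcripts, 0 were called for a change in transcript usage by edgeR's diffSpliceDGE gene test, against 1.45% of 7233 genes, and 1 had an unadjusted p under 0.05 (Dgat1, p 0.00300, adjusted p 0.108). limma's diffSplice called 1, Agpat3 (adjusted p 0.0116), against 3.12% of genes. The edgeR calls depended on single animals. Without cold 4 the test called Agpat2 and Dgat1, with 229 of all 7501 genes called. Without ctrl 10 or cold 12 it called Dgat1, with 98 of 7478 and 69 of 7482 genes called.

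**Figure D4:**
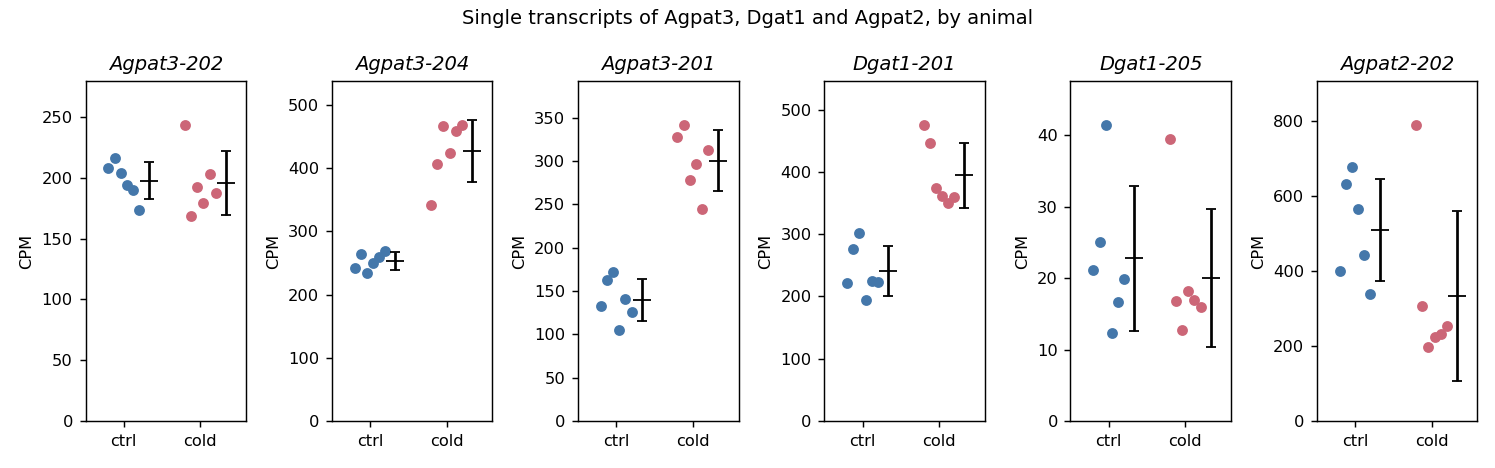
CPM of selected member transcripts in every library (linear axis from 0, own scale per transcript); points are animals and bars are mean and SD of 6. Agpat3-201 and Agpat3-204 have no overlap between the groups, and Agpat3-202 runs from 168 to 243 CPM over both groups.

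The genes around these steps, from lists chosen for the pathway, showed a mixed picture: of 65 genes listed, 59 were tested, 20 were higher and 7 lower in cold, with a median log2 change of 0.14. Over all genes tested, 31.6% were called, 16.2% higher and 15.4% lower, and these shares are also the background for each list. For glycerol 3-phosphate supply, 2 of 6 were higher, 1 was lower and 3 were not called. Gk, glycerol kinase, went from 333 to 772 CPM (log2 change 1.21, adjusted p 1.62e-04 in edgeR). Aqp7, a glycerol channel, went from 197 to 272 CPM (0.46, adjusted p 0.00220), and Pck1, phosphoenolpyruvate carboxykinase, an early enzyme on the route from non-sugar carbon to glycerol 3-phosphate, fell from 5017 to 2625 CPM (-0.93, adjusted p 6.59e-06).

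Between the AGPAT and DGAT steps, 2 of 6 phosphatases were higher and 0 lower. Lpin1, which makes diacylglycerol from phosphatidate, went from 562 to 925 CPM (log2 change 0.72, adjusted p 0.00344 in edgeR), and Lpin3 from 5.29 to 8.78 CPM (0.73, adjusted p 0.00191). Plpp2 had a log2 change of 0.36 and an adjusted p of 0.0900.

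Other acyltransferases of glycerolipids had 9 of 14 genes tested, with 3 higher and 1 lower. Lpgat1 went from 67.0 to 142 CPM (log2 change 1.08, adjusted p 2.51e-07 in edgeR) and Lclat1, which acts on lysocardiolipin, from 40.9 to 74.2 CPM (0.86, adjusted p 3.82e-04). Mogat1, which makes diacylglycerol from monoacylglycerol, fell from 10.1 to 4.58 CPM (-1.14, adjusted p 1.71e-04). The third higher gene, Mboat7, was named after its values were seen and had a log2 change of 0.36. Gpat2, Mogat2, Lpcat2, Mboat1 and Awat2 were below the filter.

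Along the phospholipid branch 5 of 12 genes were higher and 2 lower. Selenoi, which makes phosphatidylethanolamine, went from 13.6 to 28.2 CPM (log2 change 1.06, adjusted p 2.92e-06 in edgeR), Ptdss2, a phosphatidylserine synthase, from 87.7 to 139 CPM (0.66, adjusted p 3.17e-05), and Chpt1, which makes phosphatidylcholine, fell from 998 to 758 CPM (-0.40, adjusted p 9.85e-04). Named after their values were seen, Pgs1 (0.33), Pcyt1a (0.34) and Pcyt2 (0.30) were the other higher genes and Pemt (-0.65) the other lower one.

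Among acyl-CoA synthetases, which supply the activated fatty acids, 2 of 4 tested were higher and 1 lower. Acsl5 went from 564 to 1117 CPM (log2 change 0.99, adjusted p 3.10e-05 in edgeR) and Acsl1 had a log2 change of 0.26 (adjusted p 0.0289), while Acsl3 fell by 0.79 (adjusted p 2.03e-05). Of 11 lipid droplet genes 5 were higher and 1 lower. Plin2, a coat protein of the droplet, went from 1158 to 1783 CPM (0.62, adjusted p 7.60e-05), Cidec, which joins droplets, had a log2 change of 0.41 (adjusted p 0.00102), and Plin4 fell from 297 to 219 CPM (-0.44, adjusted p 0.00420). The other higher genes, named after their values were seen, were Plin5 (0.40), Cidea (0.48) and Fitm2 (0.30).

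For triglyceride breakdown 1 of 5 genes was higher, Mgll, the lipase for monoacylglycerol, from 1373 to 2009 CPM (log2 change 0.55, adjusted p 1.18e-04 in edgeR). Pnpla2 (log2 change -0.17, adjusted p 0.164) and Lipe (-0.14, adjusted p 0.190), the lipases of the earlier breakdown steps, were not called. Of 6 lipogenic transcription factors 0 were higher and 1 was lower, Mlxipl, from 593 to 375 CPM (-0.66, adjusted p 8.07e-04). Pparg had a log2 change of 0.12 (adjusted p 0.297) and Cebpa one of -0.18 (adjusted p 0.254).

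**Figure D5:**
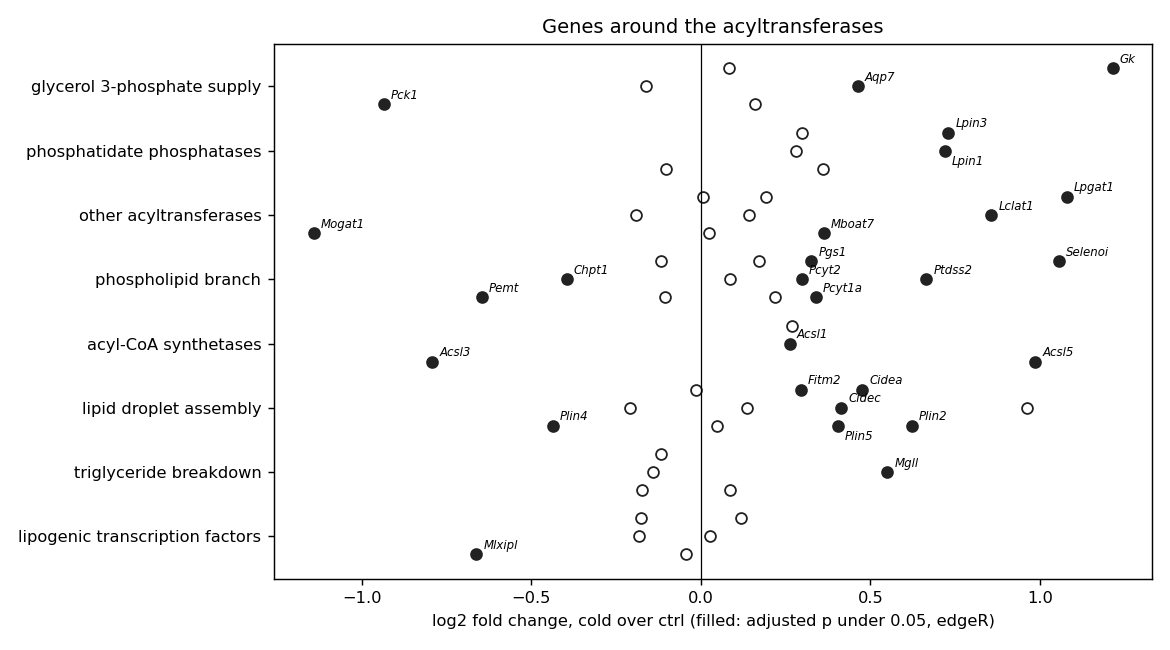
Log2 change of every tested gene in each pathway list (cold minus ctrl), with filled, named points for called genes and open points for the others; vertical offsets within a list only separate the points. Points to the right of 0 are higher in cold; Gk (1.21), Lpgat1 (1.08) and Selenoi (1.06) lie far right, and Mogat1 (-1.14) and Pck1 (-0.93) far left.

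The genes most like each called member over the 12 libraries were found by the root mean square difference of log2 CPM centred on each gene's mean, where a smaller value is closer. For Gpam they were Pcsk6 (0.108) and Dlg1 (0.109), for Agpat1 Synj2bp (0.060) and Smpd1 (0.062), and for Agpat2 Ppp1ca (0.053) and Fars2 (0.061). For Agpat3 they were Txnrd1 (0.074) and Flad1 (0.078), for Agpat5 Ldhb (0.070) and Khdrbs3 (0.077), and for Dgat1 Ppil1 (0.081) and BC004004 (0.095). Among the members themselves, Agpat1 and Agpat3 were closest to each other (0.095). This is a description over the libraries, which share the group difference.

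Within each group, mice numbered 7 and below lay higher than those numbered 9 and above on the second principal component of all genes, which held 17.9% of the variance. Across the groups the 2 sets of numbers overlapped on it, and no label names a batch. Within mice numbered 9 and above (3 ctrl and 4 cold) the 6 called genes kept their direction and their calls. Of 14084 genes tested there, 1902 were called higher and 1710 lower. Within those numbered 7 and below (3 ctrl and 2 cold) the 6 genes kept their direction, with 4 called. Of 15094 genes tested in that fit, 600 were called higher and 392 lower. Agpat2 had a log2 change of -0.36 there (adjusted p 0.238) and Agpat5 one of 0.56 (adjusted p 0.0556).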

How the data were processed

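The labels' protocols give strand-specific paired-end libraries with 50 nt reads from 12 animals. Per the submitters' processing notes bcl2fastq, cutadapt, Salmon and the GRCm38 genome were used; versions, settings and the annotation are not given in the sources used here. Every deposited file holds, per the file headers, the length, effective length, estimated counts (reads divided among transcripts by a model, not normalized) and TPM of 140658 transcripts. The deposited TPM were used only for shares within a library, since very short effective lengths (below 50 nt) took up 55.2% of all TPM in ctrl 2, against 2.36% to 8.41% in the other libraries. The depth of the libraries, as the sum of estimated counts, is given with the results, and intervals there come from the spread between animals.

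Transcripts were matched by identifier to GENCODE M21 (140137 matched, 521 not, with at most 0.152% of reads) and estimated counts were summed to 54356 genes and rounded to whole numbers. Genes and transcripts that passed filterByExpr at a minimum count of 10 were normalised by TMM and compared between cold and ctrl in edgeR 4.0.16 (robust quasi-likelihood fit, two-sided, Benjamini-Hochberg over all features tested, threshold 0.05). CPM use TMM library sizes, and values are mean ± SD over 6 animals. Transcript usage was tested with diffSpliceDGE and, as an alternative, with the diffSplice of limma 3.58.1; on simulated counts the diffSpliceDGE gene test made more false calls than its threshold allows. Isozyme shares of the 3 steps were compared by exact permutation. P-values set the difference between the groups against the spread between animals. No animal was paired, because no mouse number occurs in both groups.

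All 10 genes were named; in each pathway list the 3 genes of smallest p were named, with at least 1 in each direction where called, and for likeness the 2 nearest genes. The genes and lists were chosen with earlier results of these data known. Alternatives were RLE factors, library totals, DESeq2 1.42.0, limma-voom, no filter, a mean of at least 50 reads, an effective length offset, covariates for skeletal muscle markers and for mouse number, CPM in place of TPM, and each animal left out. Leaving out ctrl 2 and cold 15 together and the fits within mouse numbers were added after seeing the data. Promoter windows are from RefSeq. R 4.3.3 and Python 3.11.15 were used.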

Additional observations from a re-analysis of the deposited data

How the results depend on the processing

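Under 22 alternatives (scaling, test, filter, length offset, covariates, each animal left out, and ctrl 2 and cold 15 left out together), the 6 called genes kept their direction and their calls, and the 4 uncalled genes were called in 0. Among the 6 called genes Agpat2 came nearest to the threshold, with adjusted p-values from edgeR, DESeq2 or limma of 3.67e-04 to 0.0363. Its log2 changes were -0.39 to -0.25. Among the 4 uncalled genes Agpat4 came nearest, with an adjusted p of 0.0525 in edgeR without cold 11. Within mice numbered 7 and below, 0 of the 10 genes were called lower, against 392 called lower of all 15094 genes tested there. Agpat2 had a log2 change of -0.36 in that fit, with an adjusted p of 0.238 in edgeR.

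The call on Agpat2-201 was lost under several settings: 0 member transcripts were called lower with library totals and without ctrl 2 and cold 15 together, and 0 to 2 with single animals left out. The count was 0 without ctrl 2, ctrl 5, ctrl 6, cold 7 or cold 15, and 2 without cold 4, where Agpat2-202 was called. Of all 30345 transcripts tested, 929 were called lower with library totals, against 1233 with TMM. Without ctrl 2 and cold 15 together 786 of 30325 were called lower. With single animals left out, lower calls ran from 951 of 31548 (without cold 12) to 1553 of 31633 (without cold 4). Higher member transcripts numbered 6 to 8 with single animals left out, against 7. Agpat1-208 was added without ctrl 2, and Agpat5-202 was lost without ctrl 10 or cold 15 and without ctrl 2 and cold 15 together. Over all transcripts, higher calls with single animals left out ran from 1459 of 31548 (without cold 12) to 2088 of 31633 (without cold 4), against 1885 of 30345. Members called for usage numbered 1 with limma diffSplice and 0 to 2 with single animals left out. Over all genes, limma called 226 of 7233. With single animals left out, the edgeR test called from 63 of 7459 (without cold 16) to 229 of 7501 (without cold 4). With library totals 5 of the 9 other acyltransferases tested were higher in place of 3. Over all 13876 genes tested, 2895 were called higher with library totals in place of 2246, and the median log2 change was 0.08 in place of -0.01. The cause was not tested. The 3 isozyme shares kept their calls with CPM in place of TPM and without each animal.

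Agpat4 had the fewest reads of the genes described, at a mean of 50.1. The SD of its CPM was 6.78% of the mean in ctrl and 24.8% in cold. The part of depth in its result was not tested. No paired analysis was possible because the mouse numbers differ between ctrl and cold.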
